A study of Bos taurus with 31 samples.

Results

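The 10 nuclear receptors described here sense xenobiotics, lipids, sterols and hormones, and their transcripts were followed in the liver of dairy cows. They were chosen by name: the rows of the deposited raw count table whose gene symbol was NR1I2, NR1I3, PPARA, PPARD, RXRA, NR1H3, NR1H2, ESRRA, THRB or NR5A2. The rule itself used no measured values, but the receptors were chosen with earlier results of these data known. Each symbol matched 1 row, so that 10 of 24616 genes were selected, and all 10 passed the minimum of 20 reads in total, as 15916 genes did.

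Nuclear receptors are transcription factors whose activity is switched by small lipophilic ligands such as fatty acids, oxysterols, bile acids, thyroid hormone or foreign chemicals. Most of them bind DNA as a heterodimer with a retinoid X receptor and recruit coactivators or corepressors to their target genes. In the liver they couple what arrives from the gut to detoxification, fatty acid oxidation, lipogenesis, cholesterol disposal and bile acid synthesis. Much of their regulation acts on the protein, through ligand, location and phosphorylation, and such changes are not seen in the amount of receptor mRNA.

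The cows were lactating German Holsteins in a feeding trial with 2 factors, and the liver was sampled by biopsy at its end. Rations were either contaminated with glyphosate residues (GLY groups) from crops sprayed with the herbicide Roundup Record or were control rations without this contamination (CON groups). The CON rations still held background traces of glyphosate, so that these cows were not wholly unexposed. Each ration was given with a high (HC) or a low (LC) concentrate feed proportion (CFP), the rest being mainly maize and grass silage. RNA-seq was available for 31 cows: 8 in CON_LC, 8 in CON_HC, 7 in GLY_LC and 8 in GLY_HC. Each library came from a different cow, so that the replicates were animals. The GLY animals received field residues of a formulated product rather than the pure substance.

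The libraries held 11675775 to 36675542 gene-assigned reads. The 10 hepatocyte markers were all measured and together took 107900 to 216800 CPM (counts scaled to a common library total) of a library, so that the samples carried the expression of liver. A pair of libraries stood apart. The library labelled GLY_LC cow 912 had the lowest hepatocyte sum, and the next lowest was 129200 CPM. Of 9 intestinal epithelium markers, 7 had at least 20 reads over all 31 cows, but only 3 had them over the other 30 cows. Their sum was 610 CPM in cow 912, the highest of the trial, and at most 395 CPM in the other cows. Over all cows the sum was mostly APOA4 (mean 105 CPM) and LGALS4 (25.8 CPM). FABP2, BCO1, MUC13 and OLFM4 had means over all cows of 6.65, 1.52, 0.817 and 0.390 CPM, spread unevenly over the groups. In GLY_LC, the group of cow 912, they were higher than in CON_LC by 10.7, 8.57, 7.67 and 6.18 on the log2 scale. The sum alone thus does not show intestine in the other cows. Whether the biopsy of cow 912 was mixed with intestine was not tested, nor was the part of such transcripts in its receptor values. In CON_LC cow 103, the 8 stellate cell and fibroblast markers summed to 2261 CPM, against 514 CPM in the next highest library. The receptor differences over all cows are also given without cow 912.

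Values are CPM scaled by edgeR's TMM factors, and 3 values for a group are its lowest, its median and its highest cow. They describe 1 gene across cows: counts were not set per transcript length, and levels were not compared between genes. In a biopsy, fewer cells of a type and less RNA per cell cannot be told apart. Differences are log2 fold changes from edgeR's quasi-likelihood test with their 95% confidence interval, and adjusted p-values are Benjamini-Hochberg adjusted over all 15916 genes. To be called, a gene needed both an unadjusted p under 0.05 and an adjusted p under 0.1.

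None of the 10 receptors was called between HC and LC, where 231 of 15916 genes (1.45%) were called. Those calls included the intestinal markers FABP2, BCO1, MUC13 and OLFM4 (adjusted p = 0.0275 to 0.0451 by edgeR). These markers were higher in LC, whose cows included GLY_LC cow 912. None of the receptors was called between GLY and CON either, where the same test called 0 genes (0%). The receptors were expressed in every cow, and the 4 feeding groups overlapped for every receptor in every pairwise comparison. Such overlap was not particular to the receptors: it was also seen for genes that were called, such as DNAJC7 and CYP3A4 below. The share of all genes with overlapping groups was not counted. The 10 differences between HC and LC lay between -0.12 and 0.20 on the log2 scale, with standard errors of 0.08 to 0.13. Their 95% intervals ran from 0.766-fold to 1.37-fold over all receptors. For GLY against CON, the differences lay between -0.21 and 0.17 and the intervals ran from 0.736-fold to 1.31-fold.

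**Figure D1:**
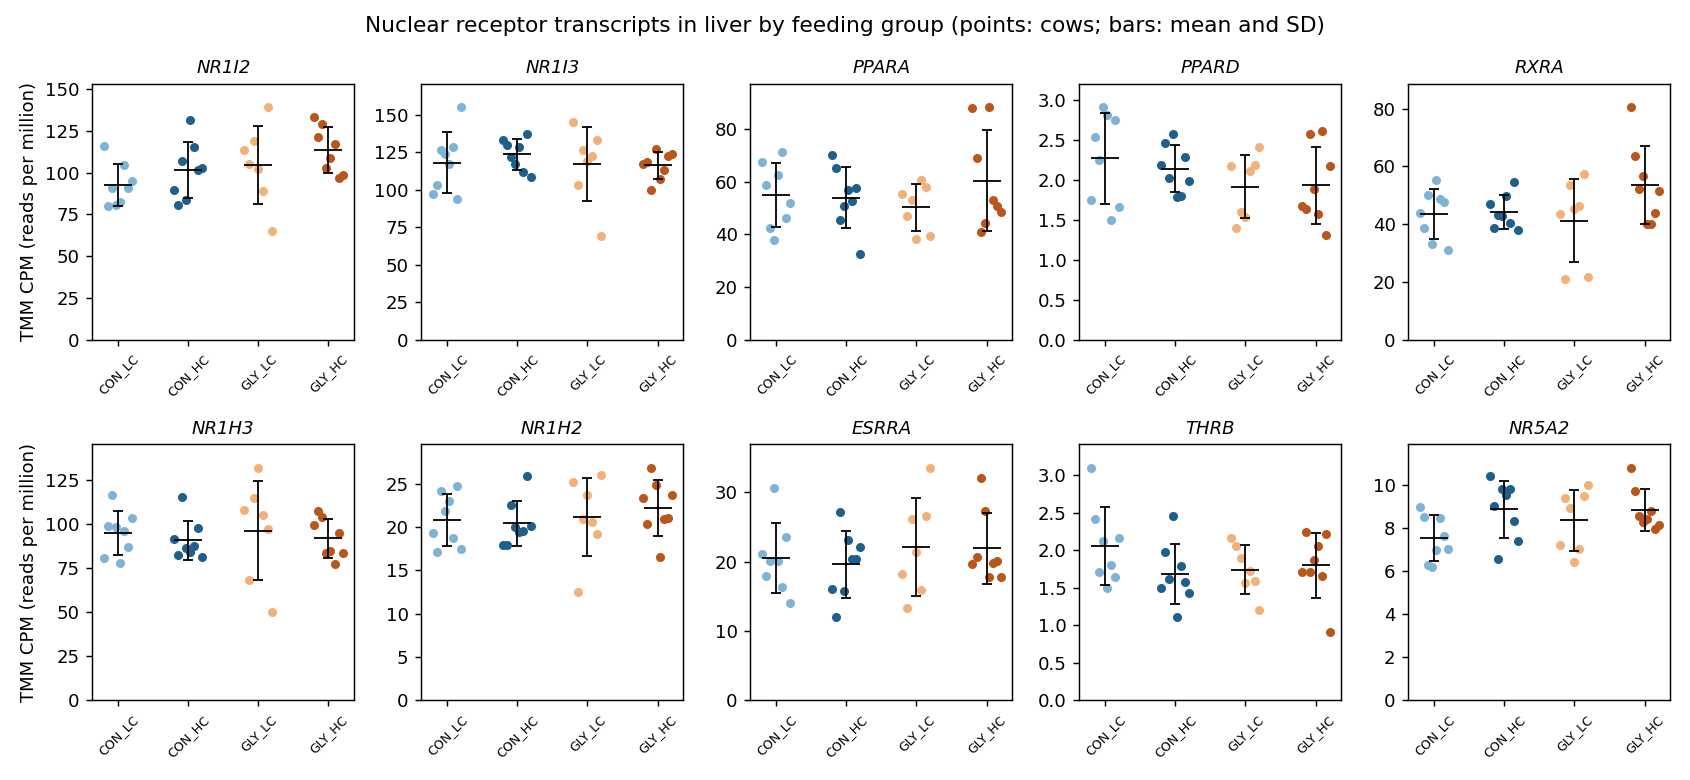
Level of each of the 10 receptors by feeding group. The y axis is TMM-scaled CPM (counts scaled to a common library total, from 0, a separate scale per gene), each point is a cow, and the bars are the group mean and SD (n = 8, 8, 7 and 8 cows). The 4 groups overlap in every panel. GLY_LC contains the cows with the lowest NR1I2, NR1I3, RXRA and NR1H3, and 1 GLY_HC cow lies apart at the bottom of the THRB panel.

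The xenobiotic sensors come first. NR1I2 (ENSBTAG00000019557) encodes the pregnane X receptor (PXR), which binds a wide range of drugs, steroids and feed compounds and induces CYP3A and transporter genes. It was at 80.2, 90.8 and 116 CPM in CON_LC and at 80.5, 102 and 132 CPM in CON_HC. In GLY_LC it was at 65.3, 105 and 139 CPM, and in GLY_HC at 97.1, 113 and 134 CPM. The medians were highest in GLY_HC and lowest in CON_LC, and GLY_LC held both the lowest (cow 912) and the highest cow (cow 905) of the trial. HC minus LC was 0.13 (interval -0.04 to 0.30, adjusted p = 0.537 by edgeR). GLY minus CON was 0.17 (interval -0.002 to 0.34), with an unadjusted p of 0.0530 and an adjusted p of 0.9999. Without cow 912 this difference was 0.21 (interval 0.06 to 0.36), with an unadjusted p of 0.00710 and the same adjusted p of 0.9999. Among the receptors it had the smallest unadjusted p for GLY, and the difference did not pass the adjusted threshold under any alternative or with any cow left out.

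NR1I3 (ENSBTAG00000009215) encodes the constitutive androstane receptor (CAR), which waits in the cytosol in a chaperone complex and moves to the nucleus upon activation to induce CYP2B and conjugating enzymes. It was at 93.9, 121 and 155 CPM in CON_LC and at 109, 125 and 138 CPM in CON_HC. The GLY_LC cows were at 69.5, 123 and 145 CPM, and the GLY_HC cows were at 99.9, 118 and 127 CPM. The 4 medians were close, and the LC groups were wider than the HC groups at both ends. The difference between HC and LC was 0.03 (interval -0.13 to 0.19) and GLY minus CON was -0.05 (interval -0.21 to 0.10). The lowest cow was again cow 912. Without it, the difference between HC and LC was -0.01 (interval -0.15 to 0.12).

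RXRA (ENSBTAG00000017851) encodes retinoid X receptor alpha, the common heterodimer partner of PXR, CAR, the PPARs, the LXRs and the thyroid hormone receptors. It was at 31.1, 45.8 and 55.2 CPM in CON_LC and at 38.0, 42.9 and 54.7 CPM in CON_HC. In GLY_LC it was at 21.0, 45.3 and 57.5 CPM, and in GLY_HC at 40.0, 51.8 and 80.6 CPM. It had the widest ratio of the 10 receptors between the highest and the lowest cow, 3.83. That ratio was set by GLY_HC cow 32 at the top and GLY_LC cow 102 at the bottom. Cow 912 was next lowest at 21.6 CPM, and every other cow was at 31.1 CPM or above. HC minus LC was 0.20 (interval -0.07 to 0.46, adjusted p = 0.536 by edgeR) and GLY minus CON was 0.10 (interval -0.16 to 0.37).

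The fatty acid sensors followed. PPARA (ENSBTAG00000008063) encodes PPAR alpha, which binds fatty acids and drives mitochondrial and peroxisomal oxidation and ketogenesis in the fasting liver. It was at 38.0, 55.4 and 71.5 CPM in CON_LC and at 32.7, 54.8 and 70.2 CPM in CON_HC. In GLY_LC cows it was at 38.3, 52.9 and 60.6 CPM, and in GLY_HC at 41.1, 52.0 and 88.5 CPM. The medians lay within a narrow band, while the upper end was highest in GLY_HC (cow 131) and lowest in GLY_LC. The difference between HC and LC was 0.12 (interval -0.13 to 0.36) and GLY minus CON was 0.02 (interval -0.22 to 0.27).

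PPARD (ENSBTAG00000017542) encodes PPAR delta, a widely expressed fatty acid receptor. It was counted with only 19 to 80 reads per cow, so that counting error takes a larger part in its spread than for PPARA with 575 to 2368 reads. Its level was 1.496, 2.40 and 2.91 CPM in CON_LC and 1.79, 2.1 and 2.58 CPM in CON_HC. In GLY_LC it was 1.40, 2.104 and 2.41 CPM, and in GLY_HC 1.30, 1.78 and 2.62 CPM. The means were 2.27 ± 0.568 (SD) CPM in CON_LC, 2.14 ± 0.294 in CON_HC, 1.91 ± 0.393 in GLY_LC and 1.93 ± 0.481 in GLY_HC. GLY minus CON was -0.21 (interval -0.44 to 0.03), with an unadjusted p of 0.0871 and an adjusted p of 0.9999 by edgeR. It was the most negative of the 10 differences for GLY. HC minus LC was -0.05 (interval -0.29 to 0.19).

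The sterol sensors are the liver X receptors, which bind oxysterols and turn on cholesterol efflux and lipogenesis. NR1H3 (ENSBTAG00000010681), the liver-enriched LXR alpha, was at 78.2, 97.2 and 116 CPM in CON_LC and at 81.2, 87.2 and 115 CPM in CON_HC. In GLY_LC it was at 50.0, 105 and 132 CPM, and in GLY_HC at 77.7, 89.9 and 108 CPM. Both LC medians were above both HC medians, but HC minus LC was only -0.07 (interval -0.26 to 0.12). Without cow 912, the lowest of the trial, it was -0.12 (interval -0.27 to 0.04). GLY minus CON was 0.02 (interval -0.17 to 0.21).

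NR1H2 (ENSBTAG00000003264), the ubiquitous LXR beta, was among the steadier receptors. It was at 17.1, 20.6 and 24.7 CPM in CON_LC and at 17.9, 19.8 and 25.9 CPM in CON_HC. The GLY_LC cows were at 12.6, 21.0 and 26.0 CPM, and the GLY_HC cows were at 16.5, 22.2 and 26.9 CPM. The only low value was that of GLY_LC cow 102, which was also lowest for RXRA. The difference between HC and LC was 0.02 (interval -0.15 to 0.19) and GLY minus CON was 0.07 (interval -0.10 to 0.24).

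The remaining receptors respond to hormones, phospholipids or coactivators. NR5A2 (ENSBTAG00000009265) encodes LRH-1, a phospholipid-binding receptor that supports bile acid synthesis and cholesterol transport. It was at 6.21, 7.36 and 9.01 CPM in CON_LC and at 6.57, 9.28 and 10.5 CPM in CON_HC. In GLY_LC it was at 6.45, 8.94 and 10.01 CPM, and in GLY_HC at 7.95, 8.50 and 10.8 CPM. The lowest median was that of CON_LC, and the other 3 groups lay close together. HC minus LC was 0.16 ± 0.08 (SE; interval 0.005 to 0.32), the only one of the 10 with an unadjusted p under 0.05 (unadjusted p = 0.0438, adjusted p = 0.342 by edgeR). It had the narrowest range of the 10 receptors, with a ratio of 1.74 between the highest and the lowest cow. GLY minus CON was 0.07 (interval -0.09 to 0.23).

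THRB (ENSBTAG00000017802) encodes the beta form of the thyroid hormone receptor and had 15 to 73 reads per cow. It was at 1.49, 1.97 and 3.104 CPM in CON_LC and at 1.12, 1.61 and 2.47 CPM in CON_HC. In GLY_LC cows it was at 1.21, 1.72 and 2.17 CPM, and in GLY_HC at 0.911, 1.80 and 2.25 CPM. CON_LC had the highest median and the highest cow. The difference between HC and LC was -0.12 (interval -0.38 to 0.14) and GLY minus CON was -0.07 (interval -0.34 to 0.19).

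ESRRA (ENSBTAG00000008645) encodes estrogen-related receptor alpha, an orphan receptor that works with PGC-1 coactivators on genes of mitochondrial respiration. It was at 14.03, 20.1 and 30.6 CPM in CON_LC and at 12.1, 20.4 and 27.2 CPM in CON_HC. In GLY_LC it was at 13.3, 21.4 and 33.6 CPM, and in GLY_HC at 17.8, 20 and 32.1 CPM. All 4 medians were nearly the same, although single cows differed up to 2.79-fold. Cow 912, the lowest for NR1I2, NR1I3 and NR1H3, was the highest for ESRRA. HC minus LC was -0.04 (interval -0.30 to 0.22) and GLY minus CON was 0.14 (interval -0.12 to 0.39).

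**Figure D2:**
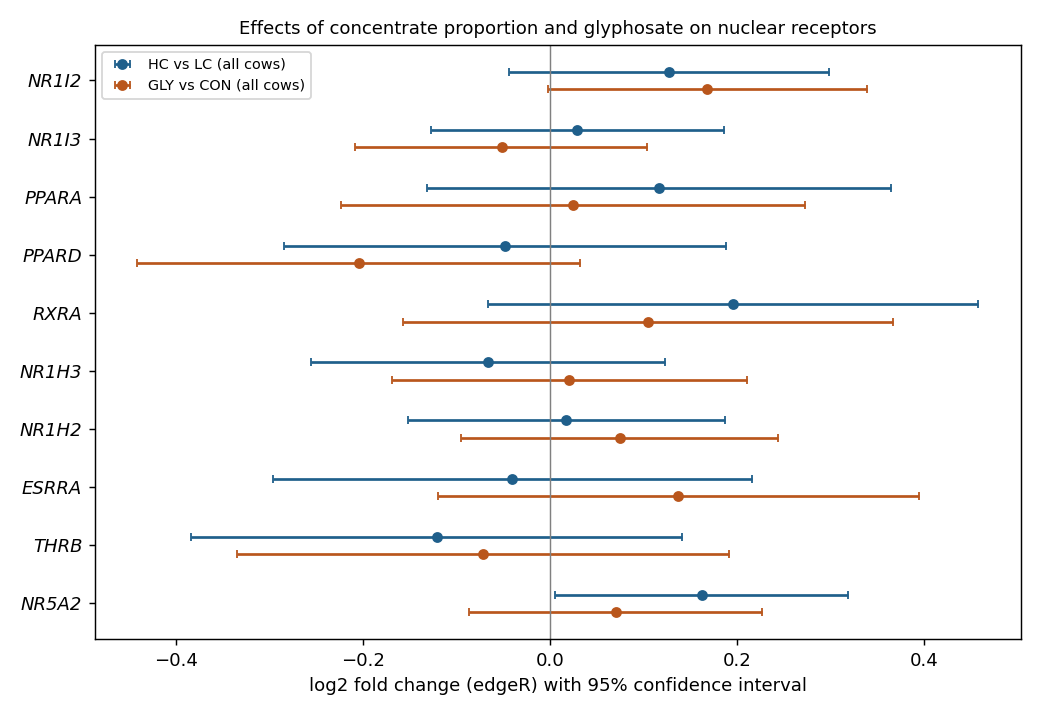
Differences over all 31 cows. The x axis is the log2 fold change from edgeR, points are estimates and bars are 95% confidence intervals, in blue for HC against LC and in orange for GLY against CON. All intervals cover 0 except that of NR5A2 for HC against LC (0.005 to 0.32), which did not pass after adjustment.

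Leaving out cow 912 changed the differences of several receptors without adding a call. For HC minus LC, NR5A2 became 0.19 (interval 0.03 to 0.34, unadjusted p = 0.0190, adjusted p = 0.306 by edgeR), RXRA 0.14, PPARA 0.09, NR1I2 0.085, NR1H2 0.04, PPARD -0.02 and THRB -0.16. ESRRA turned from -0.04 to 0.02, and NR1I3 and NR1H3 are given above. For GLY minus CON, RXRA became 0.17 (interval -0.07 to 0.40), ESRRA 0.08, NR1H3 0.075, PPARA 0.06, NR1H2 0.055 and NR5A2 0.05. On the lower side, PPARD became -0.23, THRB -0.03 and NR1I3 -0.01. NR1I2 was the only receptor whose unadjusted p for GLY passed 0.05 by this step, as given above.

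At an unadjusted p under 0.05, 1 of 10 receptors (NR5A2) differed between HC and LC, where 13.7% of all tested genes did so. For GLY against CON it was 0 of 10, against 3.92% of all genes. The median difference of the receptors was 0.02 for HC against LC, beside -0.01 for all genes, and 0.05 for GLY against CON, beside 0.004 for all genes. DESeq2 likewise called 0 receptors in both comparisons, with 1 unadjusted p under 0.05 in each (NR5A2 at 0.0411 and NR1I2 at 0.0461). For NR5A2, the unadjusted p stayed under 0.05 in 16 of the 31 fits that left out 1 cow, with a range of 0.0190 to 0.0784. Some other cell types moved with CFP. At an unadjusted p under 0.05 by edgeR, 5 of 8 macrophage markers were higher in HC, beside 5.88% of all genes. Of the 8 stellate cell and fibroblast markers, 7 were lower, beside 7.81% of all genes. Between CON_HC and CON_LC, the group of cow 103 with a fibroblast sum of 2261 CPM, 4 of these 8 were lower. Between GLY_HC and GLY_LC it was 3 of 8. In either direction, 5.96% of all genes in CON and 12.5% in GLY were under this p threshold. COL1A1, COL1A2, COL3A1 and LUM fell more within CON, and DCN, ACTA2, RGS5 and PDGFRB more within GLY. For lymphocytes, endothelium and bile duct epithelium, 0 of 8, 0 of 8 and 0 of 4 markers were under this threshold between HC and LC. Of the hepatocyte markers, only TF (0.24) and APOB (0.27) were under it, each higher in HC. Of 7 intestinal markers, 6 were lower, but 0 of 3 without cow 912. The macrophage sums had medians of 731 and 709 CPM in the LC groups and 910 and 943 CPM in the HC groups. The fibroblast sums had medians of 286 and 298 CPM in the LC groups and 245 and 196 CPM in the HC groups. For GLY against CON at this threshold, beside 3.92% of all genes, the fibroblast markers COL1A1, COL1A2 and COL3A1 were lower (-1.37, -1.38 and -0.70). The hepatocyte marker APOA1 was higher (0.46), and the red blood cell marker HBB was lower (-1.35). The intestinal markers other than APOA4 were higher in GLY, whose cows included cow 912. The fibroblast marker RGS5 was at 0.63, without passing it. The part of these cell types in the receptor values was not tested.

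The trial also asked whether CFP acted differently with and without glyphosate. The paper reports a higher glyphosate intake per body weight in GLY_HC than in GLY_LC, because the HC cows ate more. Within the GLY cows and in the interaction, CFP and this difference in exposure cannot be told apart. Within the CON cows, none of the receptors was called between CON_HC and CON_LC, and the same test called 0 genes (0%) of all tested. NR5A2 had the smallest p, with a difference of 0.24 (interval 0.02 to 0.46, unadjusted p = 0.0340, adjusted p = 0.802 by edgeR). Of all genes, 5.96% had an unadjusted p under 0.05 in this comparison. THRB was the lowest of the 10 at -0.29 (interval -0.65 to 0.08). DESeq2 on all cows called 0 receptors as well, again with 1 unadjusted p under 0.05.

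Within the GLY cows, 0 of 10 receptors were called between GLY_HC and GLY_LC, where 32 genes (0.201%) were called. Those calls also included the intestinal markers FABP2, BCO1, MUC13 and OLFM4, which were higher in GLY_LC, the group of cow 912. RXRA had the largest difference of any receptor in any comparison of groups, 0.38 ± 0.18 (SE; interval 0.01 to 0.75). Its unadjusted p was 0.0457 and its adjusted p 0.387 by edgeR, and it was the only receptor with an unadjusted p under 0.05, beside 12.5% of all genes. DESeq2 on all cows gave the same counts, 0 called and 1 with an unadjusted p under 0.05. Without GLY_LC cow 912 the difference was 0.27 (interval -0.08 to 0.62, unadjusted p = 0.129), and without GLY_LC cow 102 it was 0.27 (interval -0.08 to 0.62, unadjusted p = 0.129). PPARA was next at 0.27 (interval -0.09 to 0.62), and NR5A2 was at 0.08 (interval -0.14 to 0.31). The remaining 7 receptors lay between -0.07 and 0.12.

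**Figure D3:**
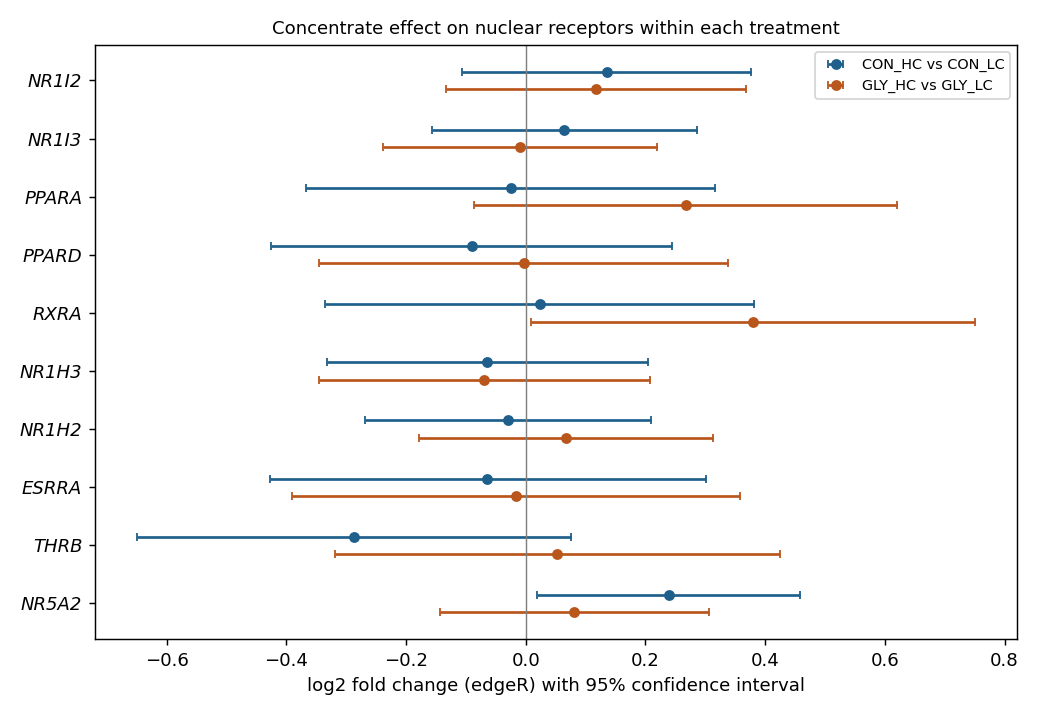
CFP difference of each receptor within the CON cows (blue, CON_HC against CON_LC) and within the GLY cows (orange, GLY_HC against GLY_LC). The x axis is the log2 fold change from edgeR with its 95% confidence interval. RXRA lies at 0.02 in CON and at 0.38 in GLY, and NR5A2 at 0.24 and 0.08, with overlapping intervals.

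The difference between both CFP effects was tested itself. No receptor was called for the interaction of GLY with CFP, for which 0 genes (0%) were called, and no receptor had an unadjusted p under 0.05, against 4.21% of all genes. RXRA had the largest interaction, 0.36 (interval -0.16 to 0.87, unadjusted p = 0.169, adjusted p = 0.9985 by edgeR), followed by THRB at 0.34 (interval -0.18 to 0.86) and PPARA at 0.29 (interval -0.20 to 0.78). NR5A2 was at -0.16 (interval -0.47 to 0.16). The interval for RXRA reached up to 1.83-fold.

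Glyphosate was also compared within each ration. Between GLY_HC and CON_HC, no receptor was called, with 0 genes (0%) called in all. The largest difference was again that of RXRA, 0.28 (interval -0.08 to 0.63). Between GLY_LC and CON_LC, 0 of 10 receptors were called beside 10 genes (0.0628%). The genes called included the intestinal markers FABP2, BCO1 and OLFM4, which were higher in GLY_LC, the group of cow 912. The most negative receptor differences were PPARD at -0.25 (interval -0.59 to 0.09) and THRB at -0.25 (interval -0.62 to 0.12). NR1I2 was higher by 0.18 (interval -0.07 to 0.43) in GLY_LC and by 0.16 (interval -0.08 to 0.40) in GLY_HC than in the CON group with the same ration, without passing either test. Without cow 912 the difference between GLY_LC and CON_LC was 0.27 (interval 0.05 to 0.49), with an unadjusted p of 0.0191 and an adjusted p of 1 by edgeR. In both comparisons within a ration, with all cows in the fit, 0 receptors had an unadjusted p under 0.05 by edgeR or DESeq2. Of all genes, 2.92% (GLY_HC against CON_HC) and 5.65% (GLY_LC against CON_LC) were under it by edgeR. DESeq2 on only GLY_HC and CON_HC had 1 receptor under it.

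The receptors differed in how much they varied among cows fed alike. The biological coefficient of variation within groups, as fitted by edgeR, was 14.8% for NR5A2, 16.4% for NR1I3, 16.6% for NR1H2, 17.6% for NR1I2, 19.3% for NR1H3 and 19.3% for PPARD. It was 21.0% for THRB, 23.9% for PPARA, 24.9% for RXRA and 24.9% for ESRRA. Over 10845 genes with a mean level at or above that of the lowest receptor, the median was 17.5%, and 3 of the 10 receptors lay under it. LRH-1, CAR and LXR beta were thus the steadier transcripts, and RXR alpha and ERR alpha the more variable ones.

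Whether receptors varied together among cows was described by Pearson's r of log2 CPM over the 31 cows after the group means had been removed, for all 45 pairs. Both values of a pair come from the same library and share its scaling. The coefficients ran from -0.498 to 0.639, with a median of 0.093. After Benjamini-Hochberg adjustment over the 45 pairs, 1 pair passed at 0.05 in a two-sided permutation test of the cows within groups: NR1H2 with ESRRA, at r = 0.611 (p = 0.000710, adjusted p = 0.0320). Its Spearman rho was 0.575 (permutation p = 0.00139, adjusted p = 0.0547), so that by rank no pair passed. Without the 2 cows farthest from the median NR1H2 value, r was 0.520. Without cow 912 it was 0.569 (permutation test, adjusted p = 0.0452).

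Other pairs came near the threshold. PPARA and NR5A2 varied together at r = 0.511 and rho = 0.517 (permutation test, adjusted p = 0.0666 and 0.0547). Without cow 912 this became r = 0.599 with an adjusted p of 0.0257 in the permutation test. PPARA and ESRRA varied in opposite directions at r = -0.498 and rho = -0.504 (permutation test, adjusted p = 0.0666 and 0.0547). PPARA and NR1H2 also did so, at r = -0.402 and rho = -0.527 (permutation test, adjusted p = 0.114 and 0.0547). PPARD and NR1H2 varied together at r = 0.472 and rho = 0.444 (permutation test, adjusted p = 0.0923 and 0.126). NR1I3 and NR1H3 had the highest coefficient of all, 0.639 (permutation test, adjusted p = 0.0666), but it rested on few cows: without the 2 cows farthest from the median NR1I3 value it was 0.391, and without cow 912 it was 0.354. The number of pairs that passed was sensitive to single cows. It was 0 without CON_LC cows 103 or 941, CON_HC cows 41 or 123, or GLY_HC cows 37, 117 or 127. It was 2 without GLY_LC cows 544, 905 or 912 or GLY_HC cow 131, 4 without GLY_LC cow 209, and 5 without GLY_LC cow 102.

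**Figure D4:**
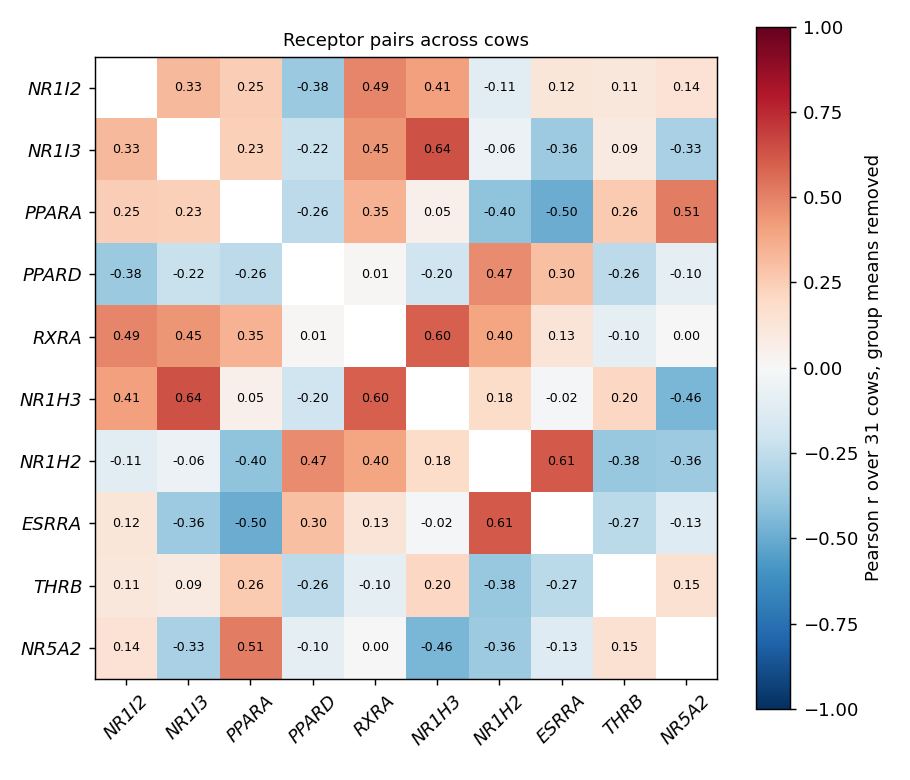
Pearson's r between each pair of receptors over 31 cows with group means removed. Colour and printed value give r on a scale from -1 to 1. NR1H2 with ESRRA (0.61) is the pair that passed after adjustment, and NR1I3 with NR1H3 (0.64) has a larger coefficient that fell to 0.35 without cow 912.

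For each receptor, the 2 other genes with the highest r over the 31 cows (group means removed) were listed. They were picked out of all tested genes, so that no p is given. NR1H2 ran closest with GNB2, a G protein subunit (r = 0.943), and MRPS2, a mitochondrial ribosomal protein (0.926). PPARA ran with KLF12, a transcriptional repressor (0.901), and EP400, a chromatin remodeler (0.871). RXRA ran with LRP5, a lipoprotein receptor-related Wnt coreceptor (0.900), and FGFRL1 (0.876). NR1H3 ran with APOA2, an HDL apolipoprotein (0.891, and 0.820 without cow 912), and KCNH3 (0.877, and 0.791 without cow 912). Among the sensors of xenobiotics, NR1I2 had RND3 (0.852) and ALAD, an enzyme of haem synthesis (0.80). NR1I3 had SDR39U1 (0.829) and XPC, a DNA repair protein (0.812). Without cow 912, RND3 and ALAD were at 0.829 and 0.695, and SDR39U1 and XPC at 0.696 and 0.645. NR5A2 ran with UHMK1 (0.844) and ITGAV, an integrin subunit (0.843), ESRRA with ANKRD9 (0.829) and TSSC4 (0.817), and PPARD with PDCD1 (0.818) and PIK3R5 (0.787), both typical of leukocytes. THRB had the weakest companions, MYO6 (0.702) and SLC7A9 (0.634).

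The receptors' partners and known target genes were counted from fixed lists. Their members are textbook partners and targets, mostly known from human or rodent cells, and were listed with earlier results of these data known. In the lists, HC against LC was read beside a background of 0.679% of genes called higher and 0.773% called lower, and of 5.88% higher and 7.81% lower at an unadjusted p under 0.05. The median difference of all genes was -0.01.

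The cytosolic partners and regulators of CAR and PXR were the list with the largest share of low values in HC. This list mixes chaperones with phosphatases and signalling proteins such as RACK1 and EGFR. Of 10 genes, 2 were called lower and 0 higher, 7 were lower at an unadjusted p under 0.05, and the median difference was -0.18. DNAJC7, the cochaperone also known as the CAR retention protein, fell by 0.16 on the log2 scale (SE 0.04, adjusted p = 0.0683 by edgeR). It was at 23.7, 25.2 and 27.5 CPM in CON_LC and 21.7, 23.0 and 25.3 CPM in CON_HC, and at 22.0, 25.5 and 27.8 CPM in GLY_LC and 18.4, 22.5 and 23.9 CPM in GLY_HC. The groups overlapped, with HC medians below LC medians in both treatments. PTGES3, the HSP90 cochaperone p23, fell by 0.23 on the log2 scale (SE 0.06, adjusted p = 0.0918 by edgeR). The chaperones themselves, HSP90AB1 at -0.23 (adjusted p = 0.132) and HSP90AA1 at -0.23 (adjusted p = 0.201 by edgeR), and the phosphatase PPP5C at -0.20 (adjusted p = 0.166) were not called.

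These calls were close to the threshold. The call of DNAJC7 was lost without GLY_LC cow 912 and without GLY_HC cow 32 (adjusted p of up to 0.104 by edgeR). That of PTGES3 was lost in 18 of the 31 fits that left out a cow, with an adjusted p of up to 0.145, and held in the fits without CON_LC cows 103, 166, 169 or 260, CON_HC cows 123, 134 or 208, GLY_LC cows 102, 147, 544 or 905 and GLY_HC cows 37 or 154. HSP90AB1 was called without GLY_HC cow 37 (adjusted p = 0.0353 by edgeR) and by DESeq2 (adjusted p = 0.0782), and PPP5C without GLY_LC cow 102 (adjusted p = 0.0909 by edgeR). Without cow 912, 0 of the 10 were called, 6 were lower at an unadjusted p under 0.05, and the median difference was -0.16. These chaperones also serve many other proteins.

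Of the genes that PXR and CAR induce, 24 rows were tested for 22 symbols. In HC, 1 was called higher and 0 lower, 7 were higher and 1 lower at an unadjusted p under 0.05, and the median difference was 0.14. The gene called was CYP3A4 (ENSBTAG00000047379), a cytochrome P450 of drug and steroid oxidation, which rose by 0.49 on the log2 scale in HC (SE 0.12, adjusted p = 0.0569 by edgeR). It was at 122, 162 and 178 CPM in CON_LC and 139, 215 and 279 CPM in CON_HC, and at 91.7, 139 and 203 CPM in GLY_LC and 119, 219 and 278 CPM in GLY_HC. The HC medians were above the LC medians in both treatments, the groups overlapped, and the call held without each of the 31 cows and with DESeq2 (adjusted p = 0.00960). CYP2C87 was higher by 0.56 (adjusted p = 0.192) and 1 of 2 rows named CYP3A5 by 0.38 (adjusted p = 0.238 by edgeR). CYP2C87 was called only without GLY_HC cow 117 (adjusted p = 0.0986 by edgeR). Genes of the CYP3A and CYP2C families are near copies of each other, and how reads were split between them is uncertain. CYP2B6, the classical CAR target, was at 0.13 (interval -0.72 to 0.98) and was chosen for mention after its value was seen.

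Among 37 tested targets of PPAR alpha and delta, 0 were called, and at an unadjusted p under 0.05, 3 were higher and 2 lower in HC. EHHADH of peroxisomal beta-oxidation was at 0.34 (adjusted p = 0.200 by edgeR), and the pantetheinase VNN1 at -0.57 (adjusted p = 0.213). The 16 tested LXR targets had 0 called, with 3 higher and 1 lower at an unadjusted p under 0.05. The fatty acid elongase ELOVL5 was at 0.54 (adjusted p = 0.164 by edgeR, 0.0868 by DESeq2), acetyl-CoA carboxylase ACACA at -0.47 (adjusted p = 0.182), and the phospholipid transfer protein PLTP at 0.44 (adjusted p = 0.255). The lipogenic LXR targets thus had values of both signs.

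For LRH-1 and bile acid handling, 16 genes were tested. None was called, 5 were higher and 1 lower in HC at an unadjusted p under 0.05, and the list had the highest median difference, 0.22. The basolateral bile acid transporter subunits SLC51B and SLC51A were at 0.59 (adjusted p = 0.149) and 1.39 (adjusted p = 0.176 by edgeR), and the bile acid-regulating receptor FGFR4 at 0.30 (adjusted p = 0.197). DESeq2 called both subunits (adjusted p = 0.0794 and 0.0868). With edgeR, SLC51B was called without CON_LC cow 260, GLY_LC cow 209 or GLY_HC cow 37, and SLC51A without CON_LC cow 260. SLC51A was a low gene, at 0.0786 to 8.98 CPM over all cows, and the highest value was that of GLY_HC cow 152.

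Of 14 thyroid hormone receptor targets tested, 1 was called lower in HC. ME1, the cytosolic malic enzyme that supplies NADPH, fell by 0.71 on the log2 scale (SE 0.19, adjusted p = 0.0768 by edgeR). Its level was 0.930, 1.58 and 3.15 CPM in CON_LC and 0.532, 0.887 and 1.12 CPM in CON_HC, and 0.765, 1.17 and 1.77 CPM in GLY_LC and 0.286, 0.790 and 1.36 CPM in GLY_HC. The HC medians were below the LC medians with overlapping groups. The call was lost without CON_LC cows 60, 103 or 259, CON_HC cows 41, 133 or 144, GLY_LC cow 42, or GLY_HC cows 32 or 152, with an adjusted p of up to 0.120. BCL3 was at 0.46 (adjusted p = 0.208 by edgeR, and 0.0833 without cow 912) and the thyroxine-binding globulin SERPINA7 at -0.25 (adjusted p = 0.273). Of 19 ESRRA targets tested besides ESRRA itself, 0 were called and 1, VEGFA, was lower at -0.12 (adjusted p = 0.293). CS was at -0.30 (adjusted p = 0.366) and COX5A at -0.11 (adjusted p = 0.556 by edgeR), which became -0.19 without CON_LC cow 166 and -0.07 without GLY_LC cow 209.

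Of 33 other nuclear receptors tested, 0 were called higher and 1 lower in HC. NR2F1, the orphan receptor COUP-TFI, fell by 0.54 on the log2 scale (SE 0.15, adjusted p = 0.0918 by edgeR). It was at 1.44, 3.104 and 4.93 CPM in CON_LC and 1.44, 1.86 and 3.47 CPM in CON_HC, and at 1.97, 2.96 and 4.25 CPM in GLY_LC and 1.07, 1.93 and 2.32 CPM in GLY_HC. The groups overlapped, and the call held in only 9 of 31 fits with a cow left out, those without CON_LC cows 169, 259 or 260, CON_HC cows 7, 144 or 208, GLY_LC cows 102 or 905, or GLY_HC cow 37. At an unadjusted p under 0.05, the others were the orphan receptor NR0B1, the RXRA paralog RXRB at -0.09 (adjusted p = 0.324), and the bile acid receptor NR1H4, named after its value was seen, at -0.21 (adjusted p = 0.331 by edgeR). NR0B1 had at most 0.565 CPM in any cow and a median of 0 CPM in CON_HC. It was called only without CON_LC cows 169 or 260 (lowest adjusted p = 0.0874 by edgeR). Of 23 coregulators, 0 were called and 1, the coactivator NCOA6, was lower, at -0.18 (adjusted p = 0.312). NCOA2 was at 0.23 (adjusted p = 0.396) and PPRC1 at -0.30 (adjusted p = 0.420 by edgeR), which became -0.13 without cow 912.

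**Figure D5:**
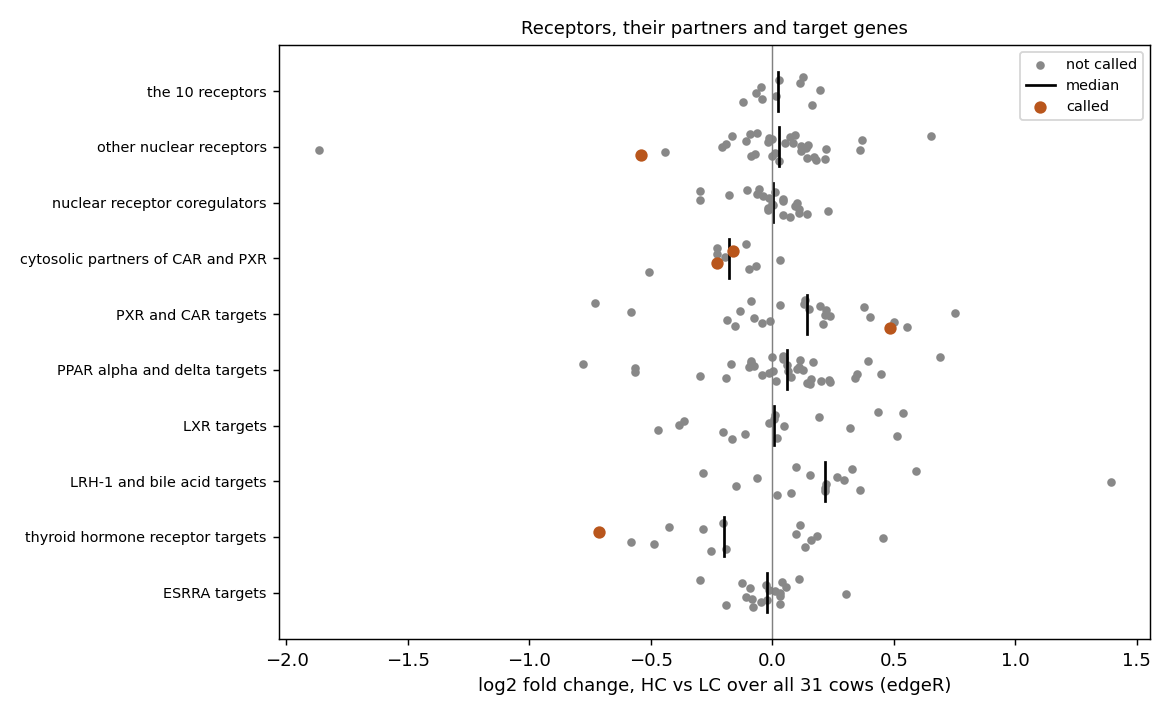
Difference between HC and LC over all 31 cows for the 10 receptors and for the genes of each list. The x axis is the log2 fold change from edgeR, each point is a gene, orange points are called genes, and the vertical bar is the median of a list. The receptors lie between -0.12 and 0.20. The 5 called genes are NR2F1, DNAJC7, PTGES3 and ME1 on the lower side and CYP3A4 on the higher side.

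For GLY against CON, 0 genes of any of these lists were called by edgeR or DESeq2, beside 0% of all genes by edgeR. At an unadjusted p under 0.05, 10 of 192 list entries (5.21%) were below the threshold in all, beside 3.92% of all genes, and of these TXNIP stands in both the PPAR and the thyroid list. The smallest p-values were those of BCL3, at 0.47 (unadjusted p = 0.00876, adjusted p = 0.937 by edgeR), and TXNIP, a redox regulator, at -0.28 (unadjusted p = 0.00887, adjusted p = 0.937 by edgeR). The fasting hormone FGF21, a PPAR alpha target, was at 0.97 (adjusted p = 0.9999), with its highest value of 67.3 CPM in cow 912, and at 0.54 without that cow. Of the same PPAR list, PDK4 was at -0.37 and SLC22A5 at 0.34 (unadjusted p = 0.0475 and 0.0494 by edgeR), both named after their values were seen. The FGF21 coreceptor KLB was at -0.31, the HDL apolipoprotein APOA1 at 0.46, CYP2C18 at -0.34 and PPP5C at 0.14, each with an adjusted p of 0.9999. APOA1 was at 0.30 without cow 912. The lipogenic genes ACACA and FASN were at -0.33 and -0.55, THRSP at -0.61 and the phosphatidate phosphatase LPIN1 at -0.50, with an unadjusted p of 0.0570 to 0.141. Single cows moved these values: FASN was at -0.93 without GLY_LC cow 544 and THRSP at -0.97 without GLY_LC cow 209, while LPIN1 was at -0.29 without CON_LC cow 169. The remaining genes named by the rule were the retinoic acid receptor RARA at -0.14, NR2C1 at 0.11, SIRT1 at 0.13, CKMT2 at -0.93, HSP90AA1 at -0.10 and ATP5F1B at 0.07, all with an adjusted p of 0.9999. CKMT2 ranged from -1.95 without GLY_HC cow 127 to -0.14 without CON_LC cow 166, and ATP5F1B was at 0.04 without GLY_LC cow 209.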

How the data were processed

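Liver RNA of 31 cows was sequenced from stranded mRNA libraries. Per the labels and the submitters' processing notes, the authors used FastQC and Trim Galore for quality control and trimming, HISAT2 2.1.0 for alignment to UMD3.1 and HTSeq 0.8.0 for counting. Whether counting used strand is not given in the sources used here. The deposited raw counts (24616 genes, whole numbers, not normalized) were used. A second deposited table of normalized values was not used.

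Counts were analysed in R 4.3.3 with edgeR 4.0.16 (TMM factors, quasi-likelihood test, 15916 genes with at least 20 reads over all cows). The 4 groups, taken from the labels, shared 1 fit for 4 group contrasts and the interaction, and additive models of treatment and CFP gave HC against LC and GLY against CON. Genes were called where p was under 0.05 and the adjusted p (Benjamini-Hochberg) was under 0.1. The scripts were tested on simulated data. Pair correlations used log2 CPM (prior count 2) and 100000 permutations of cows within groups (20000 with a cow left out), in Python 3.11.15 with scipy 1.17.1 installed.

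Depth was 11675775 to 36675542 assigned reads, and no 2 libraries of a group agreed within sampling noise. All 10 receptors were named in every comparison. Of each list, the rule named every called gene, the 3 smallest p-values for HC against LC and the 2 smallest for GLY against CON, and for each receptor the 2 genes most like it. One gene that the rule named is not reported here. Receptors and lists were chosen with earlier results of these data known. Alternatives tried were normalization by RLE or by the upper quartile, filtering by filterByExpr (minimum 10 reads) or not at all, robust fitting, DESeq2 1.42.0, only the 2 compared groups, an adjusted p under 0.05, and each cow left out. No coordinates or sequences are given, since no UMD3.1 annotation was used here.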

Additional observations from a re-analysis of the deposited data

Results flagged for a closer look

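One of the 40 combinations of receptor and feeding group held a cow that stood far from the rest of its group. THRB in GLY_HC cow 159 was at 0.911 CPM, and the nearest cow of that group was at 1.656 CPM. The gap took 0.558 of the whole range of the 8 cows, above the critical value of 0.526 of Dixon's test at 95%. By chance, about 1 group in 20 is marked in this way. The level rests on few reads, since THRB had 18 to 68 reads per cow in GLY_HC.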

How the results depend on the processing

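No receptor was called in any of the 7 comparisons under any alternative or with any cow left out, and the smallest adjusted p of a receptor was 0.253 (HC against LC, without CON_HC cow 123). Of the 70 receptor differences, 45 kept their direction throughout. The other 25 reversed under at least 1 alternative, nearly all of them close to 0 and with a single cow left out; the cause was not tested. With all cows, only PPARD between GLY_HC and GLY_LC turned, to 0.001 with upper-quartile normalization. With a cow left out, HC against LC ranged from -0.014 to 0.061 for NR1I3, from -0.028 to 0.040 for NR1H2 and from -0.087 to 0.018 for ESRRA. GLY against CON ranged from -0.030 to 0.058 for PPARA and from -0.020 to 0.075 for NR1H3. CON_HC against CON_LC ranged from -0.090 to 0.054 for PPARA, from -0.035 to 0.079 for RXRA, from -0.084 to 0.011 for NR1H2 and from -0.145 to 0.042 for ESRRA. GLY_HC against GLY_LC ranged from -0.105 to 0.051 for NR1I3, from -0.072 to 0.060 for PPARD, from -0.183 to 0.028 for NR1H3, from -0.027 to 0.120 for NR1H2, from -0.113 to 0.112 for ESRRA and from -0.022 to 0.151 for THRB. GLY_HC against CON_HC ranged from -0.009 to 0.074 for NR1H3 and from -0.059 to 0.036 for NR5A2. GLY_LC against CON_LC ranged from -0.074 to 0.085 for NR1I3, from -0.178 to 0.035 for RXRA, from -0.070 to 0.140 for NR1H3, from -0.026 to 0.119 for NR1H2 and from -0.013 to 0.224 for ESRRA. The interaction ranged from -0.108 to 0.064 for NR1I2, from -0.120 to 0.092 for NR1H3 and from -0.062 to 0.176 for ESRRA. The number of correlated receptor pairs was 1, and became 0 with Spearman's rho, 5 with upper-quartile normalization, 4 with group means not removed, and 0 to 5 with a cow left out. The calls of NR2F1 and PTGES3 were lost without the filter on low counts (adjusted p = 0.107 for both, edgeR). Over all genes, the 231 calls for HC against LC became 434 with DESeq2, 134 without the filter and 83 to 404 with a cow left out. The 32 calls for GLY_HC against GLY_LC became 66 with RLE, 11 with filterByExpr, 8 with the robust fit, 143 with DESeq2, 0 with edgeR and 87 with DESeq2 on only those groups, and 0 to 150 with a cow left out. For CON_HC against CON_LC, 0 calls became 27 with DESeq2 and 81 with DESeq2 on only those groups. For GLY_LC against CON_LC, 10 became 0 with filterByExpr, the robust fit or edgeR on only those groups, 4 and 2 with DESeq2 on all cows and on those groups, and 0 to 41 with a cow left out. For GLY_HC against CON_HC, 0 became 5 with DESeq2 on those groups, and for GLY against CON and the interaction, 1 each with DESeq2. No paired analysis was possible because each cow belongs to 1 group and no animal number is shared between groups. PPARD and THRB had under 100 reads per cow, which limits the precision of their values.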
